A study of Mus musculus with 6 samples.

Results

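Antioxidant genes were examined in GFP-positive cells of the mouse hippocampus after long demyelination, with and without neuregulin 1 beta 1 (Nrg-1β1), a ligand of ErbB receptors. The set holds the peroxiredoxins, glutathione peroxidases, glutathione transferases, superoxide dismutases, thioredoxin family genes, catalase and the genes that make glutathione or answer to NRF2, picked by symbol. The table lists 71 such genes, and 64 of them had a value in all 6 libraries, out of 20323 genes with values. The other 7, Gpx6, Gsta1, Gsta2, Gstp3, Gstt4, Mgst2 and Txndc8, had no value in any library. The symbol rule also takes in thioredoxin-fold genes with other work, such as Txnl4b, which is named for a splicing protein relative.

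The 6 libraries came from 6 Nestin-CreERT2;Rosa26-mGFP mice, whose Cre acts after tamoxifen in cells with an active Nestin promoter and marks them and the cells they give rise to with GFP. Anti-GFP magnetic sorting yielded the cells. The 3 Nrg-1β1 mice ate cuprizone for 10 weeks and received Nrg-1β1 during 4 weeks of recovery, at a dose given as 60 µg per kg per day in the series description and with the unit grams in the sample labels. The 3 vehicle mice had the same diet and recovery and received saline with 0.1% bovine serum albumin. No group without cuprizone is among the samples, so all values describe cells after this copper chelator. Recovered reads came to 567073, 662909 and 1327003 in Nrg-1β1 libraries 1 to 3, and to 72953034, 1075813 and 47076006 in vehicle libraries 1 to 3, so that depth cannot be told apart from group except through vehicle library 2. At least 10 reads were found in each library for 33 of the 64 genes. All 7 progenitor markers examined had reads in both groups, but so had markers of oligodendrocytes, astrocytes, neurons and microglia.

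Cells remove peroxides along parallel routes, among them a glutathione route and a thioredoxin route. In the glutathione route, glutamate-cysteine ligase and glutathione synthetase make the tripeptide glutathione, peroxidases and transferases spend it, and glutathione reductase restores it. In the thioredoxin route, most peroxiredoxins are recharged by thioredoxin and thioredoxin reductase. The transcription factor NRF2, encoded by Nfe2l2 and held back by Keap1, drives many of these genes through the antioxidant response element. In brain, astrocytes are known for high glutathione levels, and oligodendrocytes, the cells that cuprizone kills, are known to be sensitive to peroxides.

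A single antioxidant gene passed the threshold with all libraries, and it passed in only 4 of 16 alternative fits. Of the 64 genes 0 rose and 1 fell, where 0.438% of all genes rose and 0.625% fell. Txnip, which encodes the thioredoxin-interacting protein that binds and inhibits thioredoxin, fell in Nrg-1β1, and the other 63 genes did not pass the threshold. The threshold was an adjusted p of 0.05 in limma, fitted and adjusted over all 20323 genes, of which 1.06% passed. Without adjustment, 9 antioxidant genes were higher and 2 lower in Nrg-1β1 at a p under 0.05, where 6.15% and 6.86% of all genes were. In 8 antioxidant genes every Nrg-1β1 library lay above every vehicle library, and in 3 every one lay below, against 7.37% and 10.4% of all genes. These shares of all genes were not matched for level. Averages of 50 normalized counts or more were reached by 39 antioxidant genes and by 6731 genes in all. Of these, 6 and 919 lay fully above, and 2 and 643 fully below. At an unadjusted p under 0.05 in limma, 7 and 796 of them were higher, and 2 and 536 lower. A positive difference was found in 39 of the 64 genes, and in 52.2% of all genes. The median difference, Nrg-1β1 minus vehicle, was 0.12 over the 64 genes and 0.03 over all genes, on the scale of log2(normalized count + 4). The median over the 64 genes was -0.01 without Nrg-1β1 library 3 and -0.01 without vehicle library 3.

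**Figure D1:**
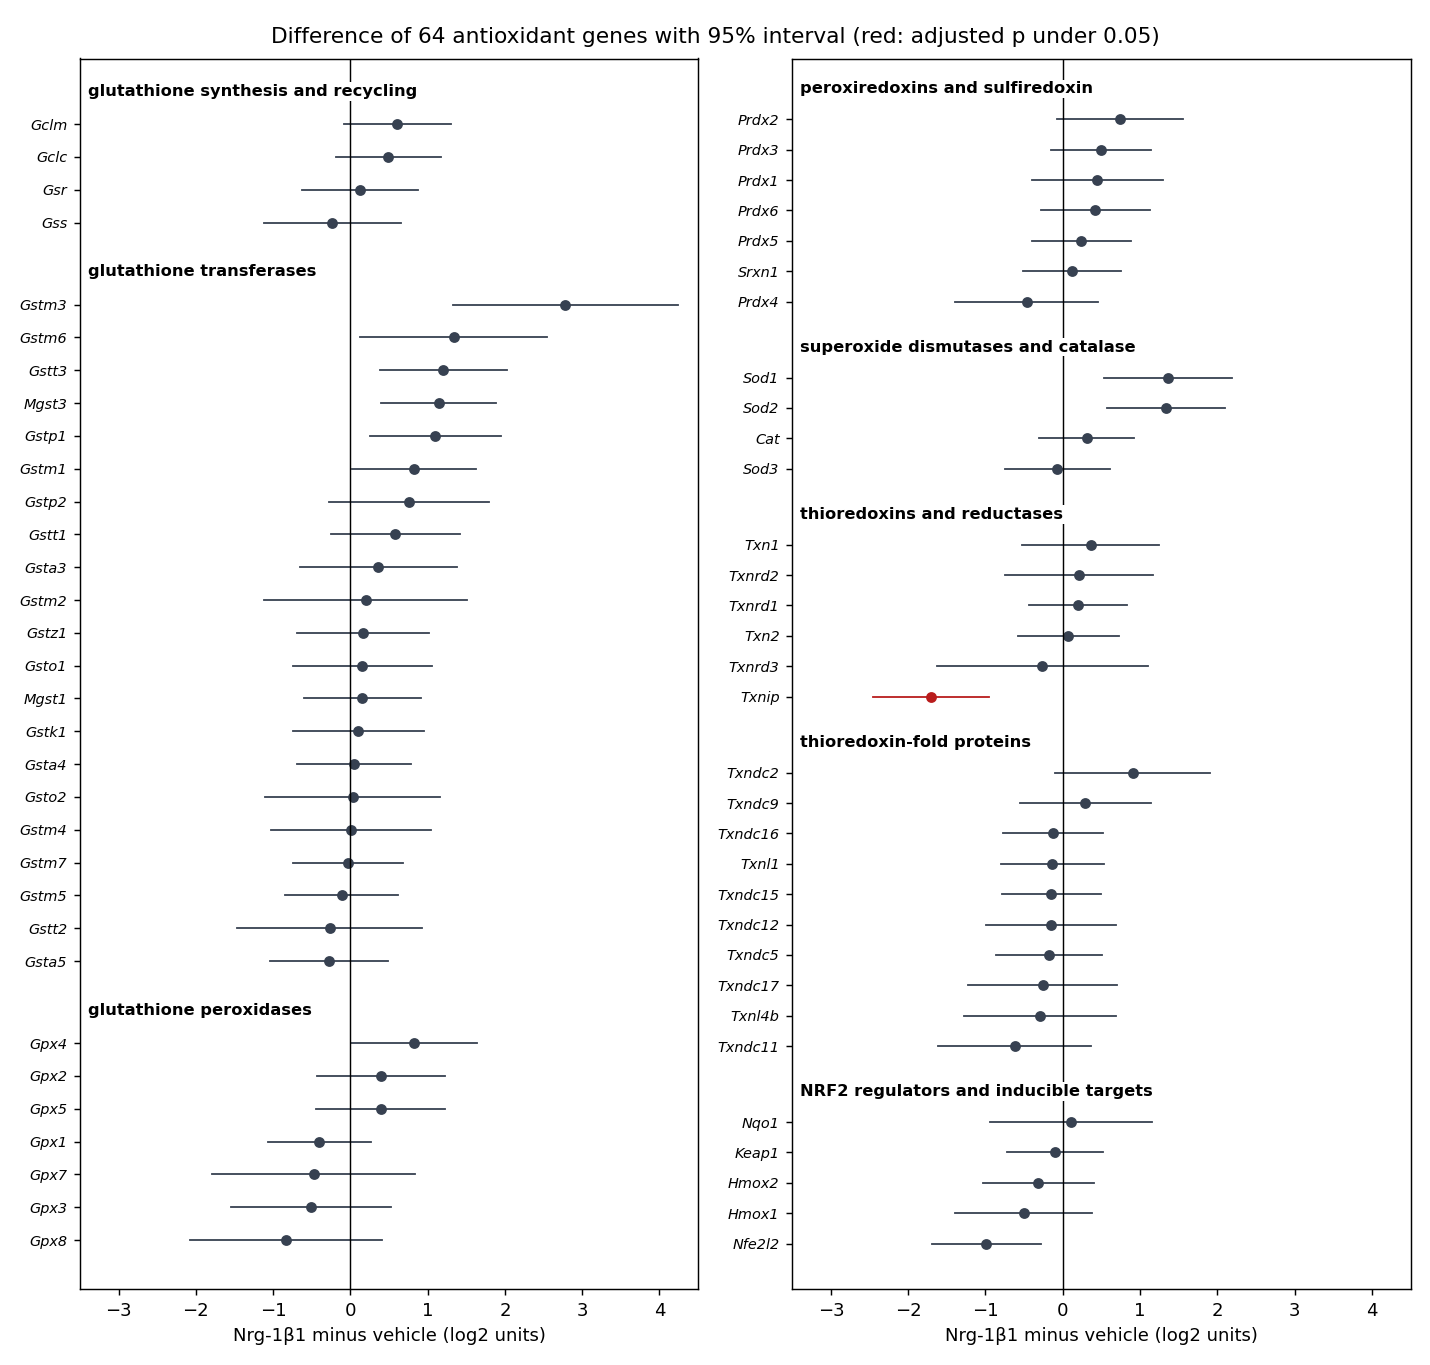
Difference between Nrg-1β1 and vehicle for each of the 64 antioxidant genes in log2 units (horizontal axis), by family, with the 95% interval from limma as a line. Txnip at -1.71 is the only gene past the threshold (red), and Gstm3 at 2.78 lies farthest to the right with the widest interval.

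Txnip had 6.60, 5.78 and 6.32 in Nrg-1β1 libraries 1 to 3, against 8.27, 7.16 and 8.41 in vehicle libraries 1 to 3 (log2 values). All Nrg-1β1 libraries lay below all vehicle libraries, and the shallow vehicle library 2 lay nearest to them. In reads, the gene had 18, 10 and 25 in Nrg-1β1 and 5024, 45 and 5548 in vehicle. The difference was -1.71 ± 0.36 (SE, adjusted p = 0.0256, limma), which is a 3.27-fold lower level. Against vehicle library 2 alone, which matches the Nrg-1β1 libraries in depth, it was -0.92 (adjusted p = 0.611, limma with a term for the deep libraries). The call was also lost when any library was left out, with adjusted p = 0.335, 0.365 and 0.173 without Nrg-1β1 library 1, 2 or 3, and 0.144, 0.226 and 0.362 without vehicle library 1, 2 or 3. With bulk samples, fewer cells of a type and less RNA per cell cannot be told apart. Markers of several other cell types moved with Txnip. All 7 listed endothelial markers fell, their summed level was 98.1 to 122.6 normalized counts in Nrg-1β1 libraries and 534 to 2596 in vehicle libraries, and none was without a read in either group. All 6 choroid plexus markers were lower in every Nrg-1β1 library than in any vehicle library, and 4 of them passed the threshold. Their sums were 76.6 to 173 normalized counts in Nrg-1β1 and 1439 to 4711 in vehicle libraries, and Kcne2 had no read in Nrg-1β1. All 4 erythroid markers with values fell, with sums of 438 to 1994 in Nrg-1β1 and 3291 to 9484 in vehicle libraries. All 7 microglial markers were likewise lower in every Nrg-1β1 library, and 4 of them passed the threshold. Their sums were 2066 to 2604 in Nrg-1β1 and 5611 to 8864 in vehicle libraries. The part of these markers in the Txnip difference was not tested.

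The Txnip promoter is shown because Txnip is the only antioxidant gene past the threshold and because its regulatory element is well known. Glucose-sensing factors of the MondoA and ChREBP type act on Txnip through a carbohydrate response element. A pair of CACGNG motifs, searched on both strands as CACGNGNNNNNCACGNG, was found in the Txnip window (RefSeq, GRCm38.p6, chr3:96557707-96558006, plus strand) and is printed in capitals. Such a pair was present in 12 of the 14806 analysed genes with a promoter window, or 0.0811%, and among the 56 antioxidant genes with one Txnip alone had it. The pattern was picked for this known Txnip element, so the match was foreseen and says nothing on the Txnip difference. The window runs from 250 bases before to 50 bases after the annotated start.
Txnip: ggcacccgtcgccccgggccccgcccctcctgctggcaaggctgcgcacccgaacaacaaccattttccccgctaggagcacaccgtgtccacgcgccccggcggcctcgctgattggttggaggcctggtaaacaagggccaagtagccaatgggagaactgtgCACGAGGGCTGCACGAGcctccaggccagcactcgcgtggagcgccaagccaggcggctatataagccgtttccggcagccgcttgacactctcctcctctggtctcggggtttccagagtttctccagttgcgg

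The remaining core genes of the thioredoxin route did not pass. Txn1, the cytosolic thioredoxin, had 6.52, 6.24 and 6.08 in Nrg-1β1 and 6.80, 6.04 and 4.91 in vehicle libraries, and Txn2, the mitochondrial thioredoxin, differed by 0.07. The groups overlapped for both genes, and the Txn1 difference of 0.36 was -0.14 without vehicle library 3. Txnrd1, the cytosolic thioredoxin reductase, differed by 0.20 (95% interval -0.44 to 0.84), and Txnrd2, its mitochondrial counterpart, by 0.21 (-0.75 to 1.17). Txnrd3 had only 11 reads over the Nrg-1β1 libraries. Of the 10 other thioredoxin-fold genes, Txndc5 and Txndc11 among them, 0 passed, and differences ran from -0.62 to 0.91. In this group 2 of 10 had a positive difference, and after centring each library on its median 7 of 10 had one. Txndc2, with the value of 0.91, had 4 reads over the Nrg-1β1 libraries.

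Peroxiredoxins reduce peroxides with a cysteine in the active site. None of the 6 genes, nor Srxn1, which repairs overoxidised peroxiredoxins, passed the threshold. Prdx6, which also has phospholipase activity, had the most reads of the antioxidant genes in every library but Nrg-1β1 library 2, where Gstm1 had more. Prdx6 had 10.53, 10.41 and 10.76 in Nrg-1β1 and 10.78, 10.19 and 9.47 in vehicle libraries. Its groups overlapped, and the difference was 0.42 (95% interval -0.29 to 1.12), or 0.74 without vehicle library 1 and 0.08 without vehicle library 3. Prdx2, which is abundant in red cells and neurons, had 8.12, 7.67 and 8.16 in Nrg-1β1 and 8.39, 6.73 and 6.62 in vehicle libraries. Vehicle library 1 was the highest of all for Prdx2, so that the groups overlapped (difference 0.74, adjusted p = 0.451, limma). The Prdx2 difference was 1.31, 0.48 and 0.42 without vehicle library 1, 2 or 3. Prdx1 differed by 0.45 and the mitochondrial Prdx3 by 0.49. Prdx5 differed by 0.24, Prdx4 of the endoplasmic reticulum by -0.47 and Srxn1 by 0.12. Without vehicle library 3 the Prdx1 difference was -0.07, and without Nrg-1β1 library 3 it was 0.04 for Prdx1 and 0.32 for Prdx3. Without vehicle library 1 or 2 it was 0.70 and 0.71 for Prdx1, and without vehicle library 1 it was -0.25 for Prdx4. In 6 of these 7 genes the difference was positive with all libraries.

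Superoxide dismutases turn superoxide into hydrogen peroxide. Sod2, the mitochondrial manganese enzyme, had 9.92, 10.03 and 8.38 in Nrg-1β1 and 8.09, 8.26 and 7.96 in vehicle libraries. The groups did not overlap, yet Nrg-1β1 library 3, the deepest of its group, lay close to vehicle library 2. The difference of 1.34 ± 0.36 (SE) did not pass (adjusted p = 0.0781, limma). In the GENCODE transcripts of Sod2, 21.0% of the 50-base stretches also occur in transcripts of other genes. Sod1, the cytosolic copper and zinc enzyme, had 7.72, 8.15 and 7.98 in Nrg-1β1 and 7.38, 6.92 and 5.46 in vehicle libraries. All Nrg-1β1 libraries were higher, and vehicle library 3 was far below the rest of its group. The Sod1 difference of 1.36 ± 0.39 (SE) did not pass either (adjusted p = 0.0993, limma). Without vehicle library 3 the Sod1 difference was 0.80. Centring each library on its median moved the median difference of all genes to 0.25, and then 4 antioxidant genes passed, Txnip, Gstm3, Sod2 and Sod1, where 2.46% of all genes did (adjusted p = 0.0132 for Sod2 and 0.0225 for Sod1, limma). Sod3, the secreted enzyme, had 6.25, 6.24 and 6.27 in Nrg-1β1 and 6.53, 6.34 and 6.11 in vehicle libraries, and differed by -0.07 (95% interval -0.75 to 0.61). Cat, which encodes the peroxisomal catalase, differed by 0.31 (-0.30 to 0.93).

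**Figure D2:**
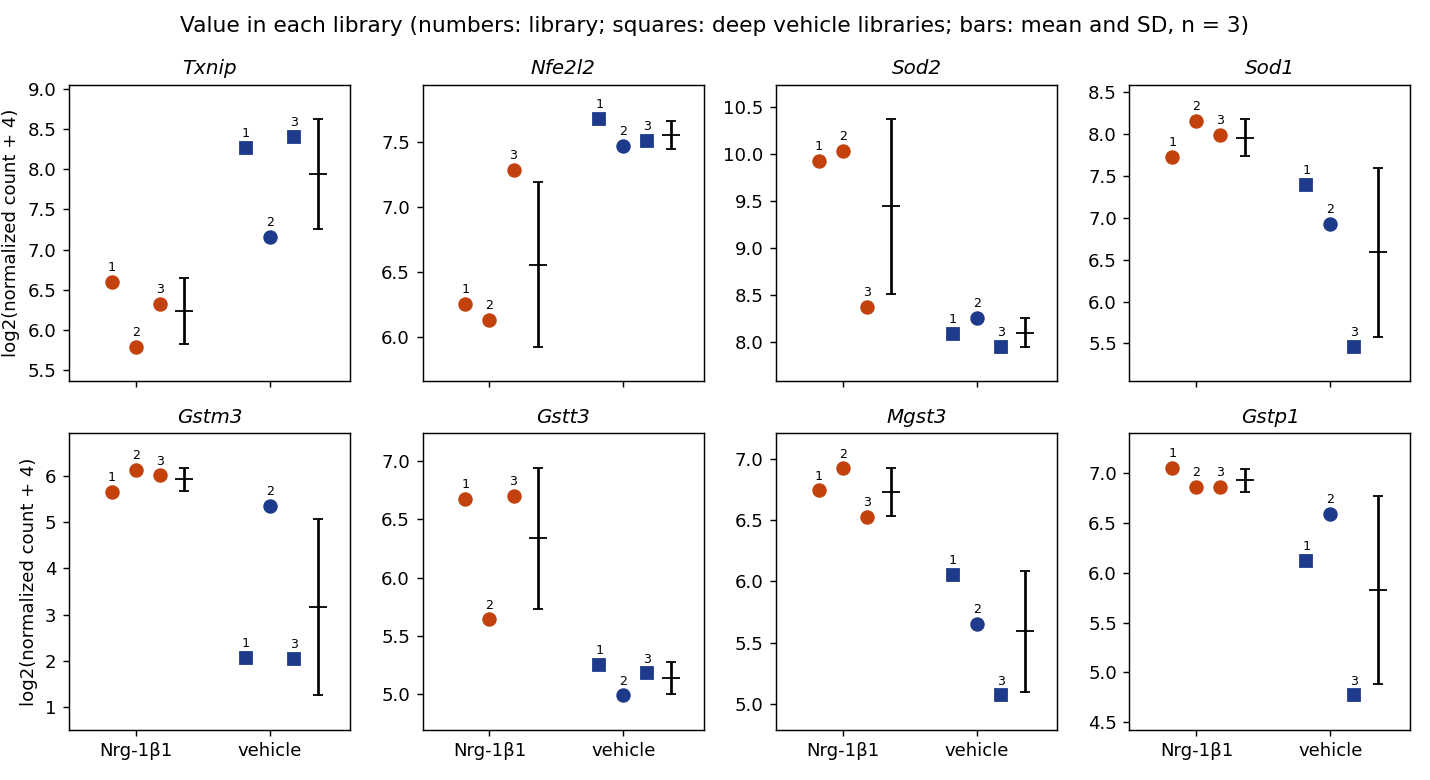
Deposited log2(normalized count + 4) value of 8 antioxidant genes in each library, Nrg-1β1 on the left and vehicle on the right of each panel, with the mean and SD (n = 3) as a bar. Squares are the deep vehicle libraries 1 and 3. For Gstm3 the shallow vehicle library 2 at 5.36 stands next to the Nrg-1β1 libraries and not next to the deep vehicle libraries.

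Glutathione transferases join glutathione to electrophiles, and their genes occur as alpha, mu, pi, theta and other classes, with a separate membrane family. Of the 21 genes measured, 0 passed, and 17 had a positive difference, which became 18 after quantile normalization and 19 after centring on library medians. Among all genes the share with a positive difference was 52.2% as deposited, 52.5% after quantile normalization and 64.4% after centring. The median over the 21 genes was 5.66, 5.78 and 6.02 in Nrg-1β1 and 5.43, 5.25 and 4.77 in vehicle libraries 1 to 3. Vehicle library 3 was thus the lowest, and positive differences were not counted without it. In 5 of the 21 the groups did not overlap, each with Nrg-1β1 higher, as in 7.37% of all genes. The same was found for 919 of the 6731 genes averaging 50 normalized counts or more. Astrocyte and neuron markers moved in the same direction without passing. All 7 astrocyte markers had a positive difference, with sums of 37555 to 41730 normalized counts in Nrg-1β1 and 22130 to 33676 in vehicle libraries. All 5 neuron markers did too, with sums of 3452 to 5281 in Nrg-1β1 and 1612 to 2701 in vehicle libraries. The part of these markers in the transferase values was not tested. Mgst3, a membrane enzyme, had 6.75, 6.92 and 6.53 in Nrg-1β1 and 6.05, 5.65 and 5.07 in vehicle libraries (difference 1.14, adjusted p = 0.133, limma). Gstt3 had 6.67, 5.64 and 6.70 in Nrg-1β1 and 5.25, 4.99 and 5.18 in vehicle libraries (1.20, adjusted p = 0.156, limma). Gstp1 had 7.06, 6.86 and 6.86 in Nrg-1β1 and 6.12, 6.59 and 4.77 in vehicle libraries (1.10, adjusted p = 0.224, limma). All 3 genes were lower in every vehicle library, but for Gstp1 vehicle library 2 came within the SE of the lowest Nrg-1β1 value. The Gstp1 difference was 0.57 without vehicle library 3 and 0.33 against vehicle library 2 alone.

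Gstm3, of the mu class, was nearly without reads in both deep vehicle libraries and had reads in every shallow library of either group. It had 9, 13 and 20 reads in Nrg-1β1 libraries, against 3, 12 and 2 in vehicle libraries 1 to 3, although vehicle libraries 1 and 3 were sequenced far more deeply. In CPM, reads scaled to a total of 1000000, this was 15.9, 19.6 and 15.1 in Nrg-1β1 libraries. It was 0.0411 in vehicle library 1 (95% exact binomial interval 0.00848 to 0.12), 11.2 in vehicle library 2 (5.76 to 19.5) and 0.0425 in vehicle library 3 (0.00515 to 0.154). These intervals cover counting error only. The difference of 2.78 did not pass (adjusted p = 0.0566, limma), and against vehicle library 2 alone it was 0.58. Of the 7939 genes with at least 5 reads in each of the 4 shallow libraries, Gstm3 was the only gene with at most 10 reads in each deep library, limits set after its values were seen. Of the 50-base stretches in the GENCODE transcripts of Gstm3, 28.8% also occur in transcripts of other genes, so that read assignment could be split. The part of assignment or of depth in this pattern was not tested.

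Other mu class genes had reads in the deep vehicle libraries too. Gstm1, a major glutathione transferase gene of brain, had 9.76, 11.01 and 10.29 in Nrg-1β1 and 10.11, 9.84 and 8.64 in vehicle libraries, with overlapping groups (difference 0.82, 95% interval 0.02 to 1.63, adjusted p = 0.371, limma). The Gstm1 difference was 0.38 without vehicle library 3 and 0.49 without Nrg-1β1 library 2. Gstm5 had 7.95, 8.02 and 9.16 in Nrg-1β1 and 8.85, 8.71 and 7.90 in vehicle libraries, a difference of -0.11. Gstm6 had 4.90, 6.86 and 4.47 in Nrg-1β1 and 4.36, 4.28 and 3.58 in vehicle libraries. Its difference of 1.34 did not pass (adjusted p = 0.316, limma), and it was 0.61 without Nrg-1β1 library 2. Mgst1 differed by 0.15, and the 13 transferase genes not yet described ran from -0.28 for Gsta5, with a single read in all, to 0.76 for Gstp2. Gstp2 shares 54.3% of its 50-base stretches with other genes, mostly with Gstp1, so the levels of both are uncertain. For Gstm1 the shared part was 18.9%, and for Gstt3 it was 12.5%.

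Glutathione peroxidases use glutathione to reduce peroxides. Gpx4, the enzyme that reduces lipid peroxides in membranes, had 7.68, 8.92 and 8.80 in Nrg-1β1 and 8.21, 7.99 and 6.71 in vehicle libraries. The groups overlapped, and the difference of 0.83 ± 0.39 (SE) did not pass (adjusted p = 0.375, limma). The Gpx4 difference was 0.36 without vehicle library 3. Of its 50-base stretches 34.7% occur in other transcripts, those of the pseudogene Gpx4-ps2. Gpx1, the widespread cytosolic enzyme, had 7.06, 7.30 and 7.61 in Nrg-1β1 and 8.33, 7.33 and 7.52 in vehicle libraries, a difference of -0.41 (95% interval -1.07 to 0.26), and -0.11 without vehicle library 1. Gpx8 of the endoplasmic reticulum had 2, 2 and 5 reads in Nrg-1β1 and 787, 2 and 629 in vehicle libraries. At this depth no difference was detectable for Gpx8 (-0.83, 95% interval -2.07 to 0.41), and leaving out a vehicle library gave -0.39, -1.56 and -0.54 for libraries 1, 2 and 3. The secreted Gpx3 had 10 reads over the Nrg-1β1 libraries, Gpx7 had 5, and Gpx5 and Gpx2 had 1 each.

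Genes that make and recycle glutathione did not pass. Gclm, the modifier subunit of glutamate-cysteine ligase, had 6.67, 6.98 and 6.83 in Nrg-1β1 and 5.77, 6.29 and 6.60 in vehicle libraries. The groups did not overlap for Gclm, but vehicle library 3 came near the lowest Nrg-1β1 value, and the difference of 0.61 did not pass (adjusted p = 0.461, limma). Gclc, the catalytic subunit, had 7.26, 6.80 and 6.97 in Nrg-1β1 and 6.14, 6.50 and 6.92 in vehicle libraries, a difference of 0.49 (95% interval -0.18 to 1.17). For both subunits vehicle library 1 was the lowest and vehicle library 3 the highest of the vehicle group, and without vehicle library 1 the differences were 0.38 for Gclm and 0.30 for Gclc. Gss, glutathione synthetase, differed by -0.24 and Gsr, glutathione reductase, by 0.13.

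Nfe2l2, which encodes NRF2, had 6.25, 6.14 and 7.28 in Nrg-1β1 and 7.67, 7.47 and 7.51 in vehicle libraries. All Nrg-1β1 libraries lay below all vehicle libraries, and Nrg-1β1 library 3 lay close to them. The difference of -0.99 ± 0.33 (SE) did not pass (adjusted p = 0.175, limma). Keap1, the NRF2 adaptor for degradation, had 7.79, 7.34 and 8.16 in Nrg-1β1 and 7.97, 7.66 and 7.97 in vehicle libraries, a difference of -0.10 (95% interval -0.72 to 0.52). Nqo1, a quinone reductase and standard NRF2 target, had 3, 5 and 25 reads in Nrg-1β1 and 407, 10 and 543 in vehicle libraries, and differed by 0.11 (-0.94 to 1.16). Its highest value of all, 6.32, was in Nrg-1β1 library 3, and that library also held the highest Nfe2l2 value of its group. Hmox1, the inducible heme oxygenase, differed by -0.51, or by -0.20 without vehicle library 2, and Hmox2, the constitutive one, by -0.31.

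The antioxidant response element was searched as TGACNNNGC on both strands of the promoter windows. It occurred in 13 of the 56 antioxidant genes with a window (23.2%) and in 15.9% of the 14806 analysed genes with one. The matches below, in capitals with up to 20 bases on each side, are shown in the orientation of the motif for 5 of the 13 genes, picked to cover the regulator, glutathione synthesis, the thioredoxin route and the dismutases (RefSeq, GRCm38.p6). The other matches were in Srxn1, Mgst1, Gstm5, Gstm7, Gsta3, Txndc2, Txndc5 and Txndc11. The printed matches lie at chr2:75704895-75704903 for Nfe2l2, chr3:122245423-122245431 for Gclm, chr4:116685466-116685474 for Prdx1, chr10:82859114-82859122 for Txnrd1 and chr16:90220706-90220714 for Sod1. The differences of the 5 genes, -0.99, 0.61, 0.45, 0.20 and 1.36, had both signs, and none passed. The letters describe the window only.
Nfe2l2: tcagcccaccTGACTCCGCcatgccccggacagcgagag
Gclm: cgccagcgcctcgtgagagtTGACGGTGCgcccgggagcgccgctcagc
Prdx1: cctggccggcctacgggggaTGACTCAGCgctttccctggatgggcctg
Txnrd1: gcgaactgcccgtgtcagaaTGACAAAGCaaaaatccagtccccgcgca
Sod1: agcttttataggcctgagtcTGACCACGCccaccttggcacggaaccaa

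Levels were compared between genes per kilobase of exon, with lengths from GENCODE M21 as the union of all annotated exons of a gene. Such a length can exceed that of the transcript present, so the order of genes depends on this choice. Gstm1 was highest in both groups, with 586, 1394 and 848 normalized counts per kilobase in Nrg-1β1 and 747, 620 and 268 in vehicle libraries. Gstm5 and Prdx6 came next, with means of 278 and 316 in Nrg-1β1 and 289 and 252 in vehicle, and did not differ from each other beyond their spread. Gpx1, Gpx4 and Prdx5 followed in vehicle, at means of 151, 124 and 110, and overlapped in their libraries. Txnip ranked 35 of 64 in Nrg-1β1, with a mean of 23.5, and 9 in vehicle, with a mean of 83.1.

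**Figure D3:**
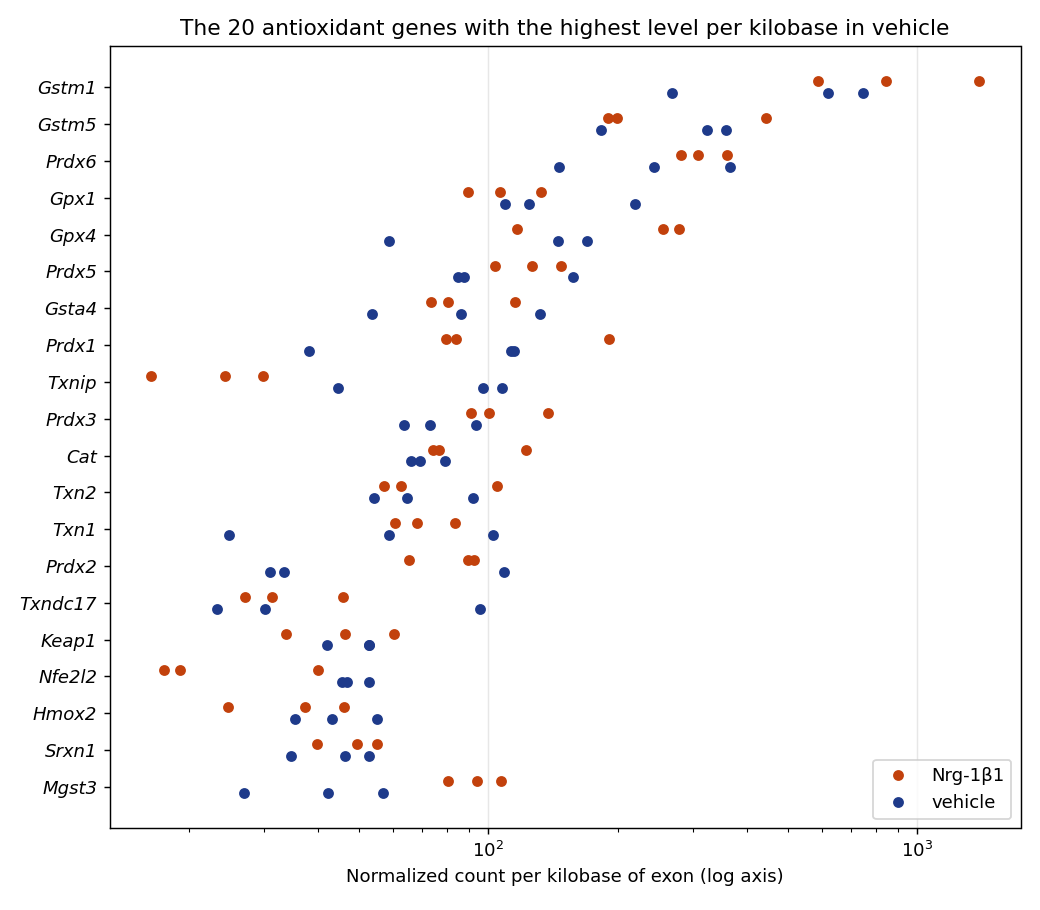
Normalized count per kilobase of exon (log axis) in each library for the 20 antioxidant genes with the highest vehicle mean, Nrg-1β1 above vehicle in each row. Gstm1 leads in both groups, and in the Txnip row the Nrg-1β1 libraries lie left of the vehicle libraries.

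Together the 64 genes took 284, 288 and 253 of every 100000 reads in Nrg-1β1 libraries 1 to 3 and 214, 222 and 198 in vehicle libraries. These shares did not overlap, but mitochondrial transcripts took 18.6%, 25.8% and 14.2% of the reads in Nrg-1β1 and 37.3%, 24.5% and 25.6% in vehicle libraries. With mitochondrial transcripts left out of the total, the shares were 349, 388 and 295 in Nrg-1β1 and 341, 294 and 266 in vehicle libraries, which overlapped. Glutathione transferases alone took 67.2, 97.9 and 73.3 of every 100000 reads in Nrg-1β1 and 52.9, 62.8 and 40.4 in vehicle libraries. Without mitochondrial transcripts these transferase shares overlapped too, at 82.6, 131.9 and 85.5 in Nrg-1β1 and 84.4, 83.2 and 54.4 in vehicle libraries. Dismutases and catalase took 53.4, 46.9 and 21.1 in Nrg-1β1 and 15.9, 21.2 and 18.3 in vehicle libraries, so that Nrg-1β1 library 3 lay within the vehicle range.

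Vehicle library 3 was low for many of these genes. Among the 39 antioxidant genes whose mean normalized count reached 50, it held the lowest value for 19, and no other library did so for more than 6. Its difference from vehicle library 1 was -1.93 for Sod1, -1.89 for Txn1, -1.77 for Prdx2, -1.53 for Prdx1 and -1.36 for Gstp1. It was 0.83 for Gclm and 0.78 for Gclc. Exon length moved with this. Across these 39 genes Spearman's rho between exon length and the difference of vehicle library 3 from vehicle library 1 was 0.56, and across all 6544 such genes with a length it was 0.58. The correlations are across genes, which share libraries and are not replicates. In all genes with exons of at most 1000 bases, the median difference between these vehicle libraries was -1.26, and above 8000 bases it was 0.37. For vehicle library 2 minus vehicle library 1 these medians were -0.97 and 0.38. The length trend over all genes was thus not particular to vehicle library 3. For Nrg-1β1 minus vehicle, rho was -0.06 across the 39 genes. The part of transcript length in the values of single genes was not tested.

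**Figure D4:**
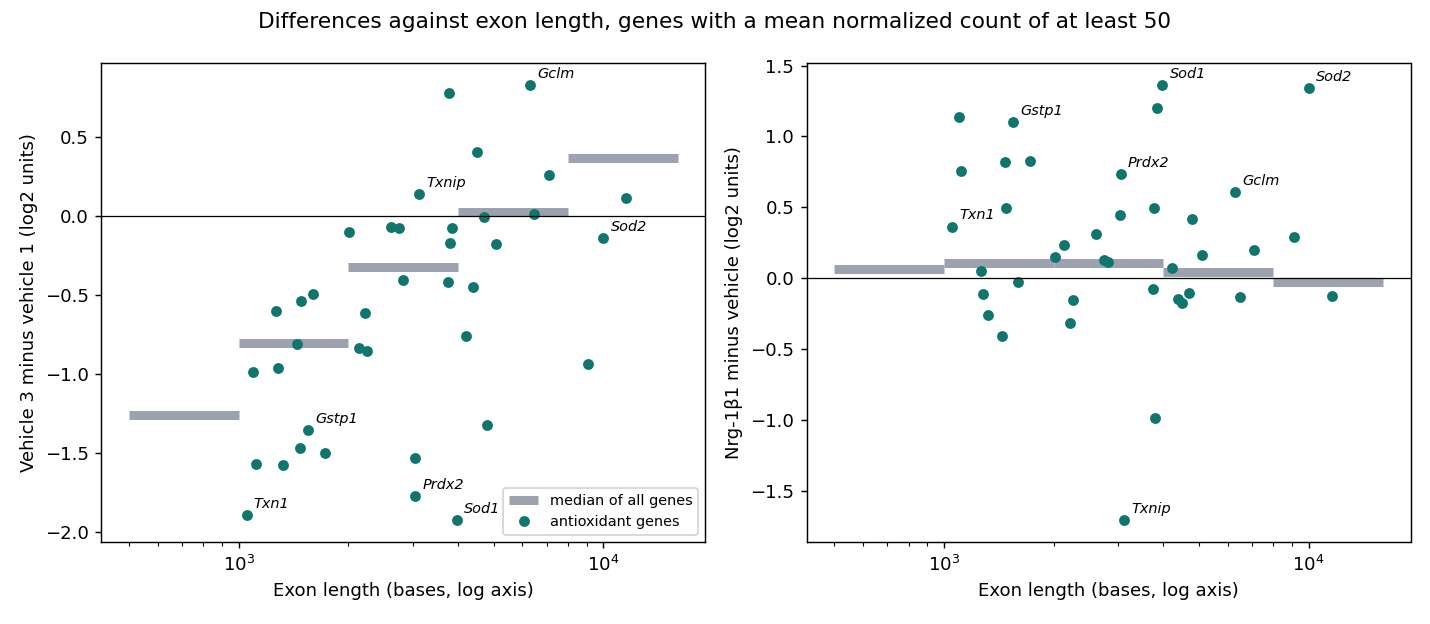
Difference of vehicle library 3 from vehicle library 1 (left) and of Nrg-1β1 from vehicle (right) in log2 units against exon length in bases (log axis), for 39 antioxidant genes. Grey bars are medians of all genes per length range, from -1.26 up to 0.37 in the left panel, and lie between -0.03 and 0.11 in the right panel.

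Other redox genes were read from a list outside the symbol rule, which covers glutathione supply and breakdown, glutaredoxins, NADPH supply and NRF2 partners. Of 65 listed genes 63 had values, 0 rose and 1 fell, against 1.06% of all genes. The one that fell was Cyba, a membrane subunit of the NADPH oxidase of phagocytes. It had few reads, 1, 2 and 9 in Nrg-1β1 and 1683, 26 and 693 in vehicle libraries. Its log2 values were 3.20, 3.83 and 4.97 in Nrg-1β1 and 6.73, 6.40 and 5.52 in vehicle libraries. The Cyba difference was -2.22 ± 0.51 (SE, adjusted p = 0.0412, limma). Leaving out any 1 of the 6 libraries ended this call (adjusted p = 0.102 to 0.389). Microglial markers moved with Cyba. All 7 were lower in every Nrg-1β1 library than in any vehicle library, and 4 of them passed the threshold. Their summed level was 2066 to 2604 normalized counts in Nrg-1β1 and 5611 to 8864 in vehicle libraries, with no marker at 0 reads in a group. Their part in the Cyba difference was not tested. Cybb, another oxidase gene on this list, differed by -0.28 (95% interval -1.47 to 0.90), with overlapping groups.

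Glrx3, a cytosolic glutaredoxin gene, had 7.45, 7.43 and 6.02 in Nrg-1β1 and 5.14, 5.82 and 4.23 in vehicle libraries. Nrg-1β1 library 3 lay close to vehicle library 2, and the difference of 1.90 ± 0.46 (SE) missed the threshold (adjusted p = 0.0505, limma). Me1, the cytosolic malic enzyme that supplies NADPH, had 8.32, 8.67 and 9.03 in Nrg-1β1 and 7.95, 7.90 and 6.91 in vehicle libraries (1.09, adjusted p = 0.11, limma). Glo1, which clears methylglyoxal with glutathione, had 8.65, 8.39 and 8.73 in Nrg-1β1 and 7.96, 7.97 and 7.43 in vehicle libraries (0.80, adjusted p = 0.193, limma). Groups did not overlap for these genes, and none passed. Abcc4, an efflux transporter gene, and Anpep, an aminopeptidase gene, differed by -1.57 and -1.99 without passing. Both had few reads in Nrg-1β1 libraries 1 to 3, with 3, 6 and 5 for Abcc4 and 0, 1 and 1 for Anpep.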

How the data were processed

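The authors deposited log2 values per gene, in a table of 27102 genes of which 6779 hold no value. Trimmomatic and Bowtie2 appear in the submitters' processing notes. For counter, build, strand setting and normalization, the sources used here give nothing. Every library's lowest value is 2, the log2 of 4. After unlogging and subtracting 4, each library had 1 smallest step, and 100% of values were whole multiples of it (tolerance 0.02 reads), so they were read as log2(normalized count + 4). One read equals 0.0605 to 5.17 normalized counts.

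Groups follow the sample titles, and each library is 1 mouse. The test was limma with an intensity trend (limma 3.58.1, R 4.3.3), two-sided, group as the only term, Benjamini-Hochberg over 20323 genes, checked on simulated data. It understates changes of genes with few reads. Intervals of read shares are exact Clopper-Pearson and cover counting error only. The members and lists were chosen with earlier results of these data known. Named genes are those past the threshold, the 12 smallest p, the 8 highest levels and a fixed set, 38 in all, with 6 of the wider list. Exon lengths (the union of all annotated exons) and shared 50-base stretches come from GENCODE M21 and promoters from RefSeq. Neither is known to match the authors' build. The search for paired CACGNG motifs and the limits for Gstm3 were chosen after the values were seen.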

Additional observations from a re-analysis of the deposited data

How the results depend on the processing

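The count of antioxidant genes past the threshold was 1 with all libraries, Txnip, and 0 to 0 when each library was left out in turn, with 3 to 13 at an unadjusted p under 0.05 in limma, while the count over all genes was 0 to 56 (216 with all) and that of the wider redox list 0 to 0 (1 with all). Txnip kept its direction in all 16 alternatives, from -2.17 to -0.92, and passed in 4. No result changed direction while past the threshold. With a term for the deep vehicle libraries, which leaves vehicle library 2 as the comparison, 0 genes, 0 antioxidant genes and 0 of the wider list passed, and 1729 genes had an unadjusted p under 0.05. With a term for vehicle libraries 1 and 2, where Y-linked genes had few reads, vehicle library 3 was the comparison, and 100 genes, 1 antioxidant gene (Sod1) and 0 of the wider list passed. Quantile normalization gave 65 (12 higher), 0 and 0. Centring on library medians gave 499 (335 higher, against 89 of 216 as reported), 4 (Txnip, Gstm3, Sod1 and Sod2) and 3, and the antioxidant median became 0.34 where that of all genes became 0.25. Restricting to genes whose mean normalized count reached 50 gave 49, 0 and 0, and the limma-voom test on recovered reads 1, 0 and 0. Without the intensity trend the counts were 21, 0 and 0. A pseudocount of 1 gave 129 genes and 0 of the wider list, and one of 16 gave 0 of the wider list. The cause of these shifts was not tested.

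Libraries with the same number did not deviate together (correlations of -0.13, -0.00167 and -0.18), and no library correlated best with its own number. With the replicate number as a block 627 genes passed, 4 antioxidant genes, Txnip among them, and 3 of the wider list. In this fit limma took variances from the trend over all genes (40646 degrees of freedom for Txnip). The spread of single genes between libraries thus hardly counted. Of the 42 named genes that did not pass, 12 turned sign under at least 1 alternative, each with a difference of at most 0.83 in size as reported, and 6 passed under an alternative. Depth limits the genes with few reads: 10 antioxidant genes had under 10 reads over the Nrg-1β1 libraries, and the SE ran from 0.29 to 0.70 over the 64 genes.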
